A study of Drosophila melanogaster with 2 samples.

Results

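The 87 genes described here are nuclear genes of oxidative phosphorylation, and the data are peaks of the GFP-tagged protein CG13123 in whole fruit fly embryos. Nuclear subunits with other symbols, among them Cyt-c1, RFeSP, ox, levy, cype, blw and sun, are not among the 87. Every count per complex leaves them out. The 87 are the nuclear genes of the Ensembl dm6 annotation whose symbols begin with ND-, COX and a digit, UQCR, ATPsyn, or Sdh followed by A, B, C or D, and they were taken by symbol alone from 18320 nuclear genes, of which 13973 are protein-coding. Chromatin immunoprecipitation with an antibody against GFP was followed by sequencing in 2 samples, biological replicates 2 and 3, which form 1 group. Both were embryos of mixed sex, 0 to 24 hours old, from 1 transgenic line that stably makes CG13123 fused to GFP at its C terminus. The labels used here do not give the promoter that drives the transgene, and no group without the tagged protein was analysed here. Each replicate is a whole-embryo mixture of ages and tissues, so binding in fewer cells and weaker binding in each cell cannot be told apart. With 1 group, the comparisons are between genes, between peak lists and between the replicates, and no test was made of any of them.

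Oxidative phosphorylation passes electrons along the inner mitochondrial membrane and uses the proton gradient this builds to make ATP. Complex I (ND genes) takes electrons from NADH, complex II (Sdh genes) takes them from succinate, complex III (UQCR genes) hands them to cytochrome c, complex IV (COX genes) gives them to oxygen, and complex V (ATPsyn genes) is the ATP synthase. All 5 hold subunits encoded in the nucleus, by genes scattered over the chromosomes. Flies also carry duplicates of many of these genes, marked by an L at the end of the symbol, and such duplicates are known for expression in the testis, a background fact that these data do not measure.

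A gene was given the highest peak whose summit lay within 500 bp of one of its transcription start sites (TSSs). The relaxed lists hold 30000 peaks each, weak ones included, for replicate 2, for replicate 3 and for both together. The IDR list holds the 2704 peaks past the authors' irreproducible discovery rate threshold, and these are the peaks of highest signal in the relaxed list of both replicates. Signal is the value the authors gave each peak, on a scale the labels do not state. In the list of both replicates it ran between 19.3 and 1992, with 75.5 as the lowest value in the IDR list. The lists give no read counts, so the depth behind each value is unknown.

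An IDR summit lay at 16 of the 87 genes, or 18.4%, beside 11.7% of all nuclear genes and 14.3% of protein-coding ones. These were 7 subunit genes of complex I (ND-23, ND-24, ND-42, ND-51, ND-ASHI, ND-MWFE and ND-SGDH), SdhB and SdhC of complex II, 5 of complex IV (COX5A, COX5B, COX6B, COX7B and COX8), and ATPsynC and ATPsynbeta of complex V. None belonged to complex III and none was an L duplicate. A relaxed summit of both replicates lay at 56 genes, or 64.4%, beside 45.5% of all nuclear genes and 50.5% of protein-coding ones. Among genes with such a relaxed summit, 28.6% of these 56 and 25.8% of all nuclear genes had one in the IDR list, so the share past the IDR threshold was near the background once a relaxed summit was required. Of the 31 genes with no relaxed summit of both replicates, 13 had a summit in the list of a single replicate or of each replicate. The other 18 of the 87 had none in any of the 4 lists, beside 7999 of 18320 nuclear genes.

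Bases around 5 of the IDR summits show what kind of DNA lay under the peaks, and they were chosen to span the range of signals, the complexes and the words found. They are read from the Release 6 genome on the plus strand, with the summit in the middle base and dm6 coordinates. Capitals mark matches to the words searched, which are described after the peak values. At COX5A, printed as 81 bases where the other windows have 121, the word is ACAGTG, read on the minus strand, and the 121-base window there also holds TATAAA. At ND-ASHI it is TATAAA, also on the minus strand. At ND-42 a match to the nuclear respiratory gene element is overlapped by TATAAA. At ATPsynC it is GGTCACAC, on the minus strand. The window at ND-51 held none of the words. The windows lie at chr3R:11819476-11819556 (COX5A), chrX:6679288-6679408 (ND-ASHI), chr2L:6062790-6062910 (ND-51), chr3R:22027543-22027663 (ND-42) and chr3R:31219683-31219803 (ATPsynC).
COX5A: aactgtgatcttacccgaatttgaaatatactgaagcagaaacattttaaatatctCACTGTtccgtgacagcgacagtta
ND-ASHI: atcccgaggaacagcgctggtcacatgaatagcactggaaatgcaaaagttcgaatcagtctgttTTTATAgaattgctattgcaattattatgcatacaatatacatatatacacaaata
ND-51: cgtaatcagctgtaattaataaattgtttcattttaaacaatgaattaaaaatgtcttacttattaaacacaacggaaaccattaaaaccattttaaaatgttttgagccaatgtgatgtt
ND-42: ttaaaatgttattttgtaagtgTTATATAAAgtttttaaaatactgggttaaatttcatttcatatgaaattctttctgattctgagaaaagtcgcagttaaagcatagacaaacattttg
ATPsynC: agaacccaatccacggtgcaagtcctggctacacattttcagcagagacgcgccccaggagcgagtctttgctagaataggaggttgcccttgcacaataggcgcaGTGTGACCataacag
Over 121 bases at each summit, GC content was 35.5% at COX5A, 33.9% at ND-ASHI, 24.8% at ND-51, 24.0% at ND-42 and 53.7% at ATPsynC. ATPsynC had the window richest in G and C of these 5 and, among them, the lowest signal.

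In complex I, 7 of 34 subunit genes without an L symbol had an IDR summit and 23 had a relaxed one, with a median signal of 55.4 over the 23. The core subunits, which carry the flavin and the iron-sulphur clusters that electrons pass through, are ND-75, ND-51, ND-49, ND-30, ND-24, ND-23 and ND-20 in the nucleus. Of these 7, 3 had an IDR summit and 5 a relaxed one, beside 4 and 18 of the 27 accessory subunits. ND-24, whose protein holds an iron-sulphur cluster near the NADH end, had a signal of 163.5 in both replicates together, 100.6 in replicate 2 and 64.6 in replicate 3, at chrX:17632177-17632276. ND-51, the subunit that binds flavin and meets NADH, had 142.3 together, 75.6 in replicate 2 and 67.1 in replicate 3, at chr2L:6062650-6063049. The third, ND-23, a carrier of iron-sulphur clusters near the membrane, had 106.8 together, 65.4 in replicate 2 and 40.4 in replicate 3, at chr3R:15837089-15837488. All 3 were higher in replicate 2 than in replicate 3, as was the median gene of the whole annotation.

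The accessory subunits with an IDR summit were as high as the core ones. ND-ASHI, of the membrane arm, had 161.5 together, 92.6 in replicate 2 and 65.4 in replicate 3, at chrX:6679148-6679547. ND-MWFE, a small membrane subunit known in mammals to be needed for assembly, had 151.4 together, 82.4 in replicate 2 and 77.1 in replicate 3, at chr2R:13158301-13158700. It was the highest of the 87 genes in replicate 3, while ND-24 was the highest in replicate 2. ND-SGDH, another subunit of the membrane arm, had 129.5 together, 74.9 in replicate 2 and 54.9 in replicate 3, at chr3L:12138386-12138785, and it was the only member with more than 1 IDR summit in its promoter window. ND-42, a matrix-facing subunit, had 119.0 together, 85.6 in replicate 2 and 37.9 in replicate 3, at chr3R:22027403-22027802. Its 2 values differed the most of the 16 genes, by a ratio of 2.26.

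In complex II, both SdhB and SdhC had an IDR summit among 4 subunit genes, and all 4 had a relaxed one, with a median signal of 64.7. SdhC, a membrane anchor of the enzyme, had 102.5 together, 46.4 in replicate 2 and 49.4 in replicate 3, at chr3R:11209781-11210180. SdhB, the iron-sulphur subunit, had 88.2 together, 56.0 in replicate 2 and 30.8 in replicate 3, at chr2R:6807424-6807823. SdhB was not among the 2704 highest peaks of replicate 3, so that list alone gives 1 of 4. SdhA, the flavin subunit, had 38.8 and SdhD, the other anchor, 41.3, both in the relaxed list only.

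Complex III had no IDR summit at any of its 6 subunit genes without an L symbol. UQCR-14, a small subunit, had 69.5 together, 40.8 in replicate 2 and 32.2 in replicate 3, below the 75.5 at which the IDR list ends. UQCR-C2, a core protein of the matrix side, had 55.7, UQCR-Q had 35.4 and UQCR-6.4 had 25.4 together. UQCR-C1 and UQCR-11 had a summit in none of the 4 lists. With 6 genes, a share of 0 is a count over a very short list.

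In complex IV, 5 of 8 subunit genes without an L symbol had an IDR summit and all 8 had a relaxed one, with a median signal of 96.0, the highest of the 5 complexes. COX5A, a subunit on the matrix side, had 165.3 together, 90.4 in replicate 2 and 67.8 in replicate 3, at chr3R:11819316-11819715. It had the highest signal of all 87 genes in the list of both replicates, at rank 640 of 2704 in the IDR list. COX7B, a small transmembrane subunit, had 108.1 together, 75.2 in replicate 2 and 36.5 in replicate 3, at chr3L:17425146-17425545. COX8, another such subunit, had 107.2 together, 72.3 in replicate 2 and 41.0 in replicate 3, at chr3L:21539300-21539699. These 2 were close to each other in all 3 values.

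COX6B, a subunit facing the intermembrane space, had 97.7 together, 53.0 in replicate 2 and 40.3 in replicate 3, at chrX:19744152-19744551. COX5B, which binds zinc on the matrix side, had 94.2 together, 61.9 in replicate 2 and 36.7 in replicate 3, at chr2L:6557333-6557732. All 5 genes were also among the 2704 highest peaks of each replicate on its own. Counting a summit only for the gene with the nearest start gave 3 of 8. The other 3 subunit genes had lower signals, with 65.6 at COX7C, 41.6 at COX7A and 24.7 at COX4. The range over the 8 genes, 24.7 to 165, covered most of that of the 56 genes with a relaxed summit, 19.7 to 165.

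In complex V, 2 of 11 subunit genes without an L symbol had an IDR summit and 10 had a relaxed one, with a median signal of 56.0. ATPsynC, the subunit that forms the rotor ring in the membrane, had 84.6 together, 42.6 in replicate 2 and 41.2 in replicate 3, at chr3R:31219543-31219942. ATPsynbeta, the catalytic subunit, had 81.5 together, 39.5 in replicate 2 and 40.3 in replicate 3, at chr4:1031693-1032092. They were the lowest of the 16, and neither was among the 2704 highest peaks of replicate 2, which gives 0 of 11 without replicate 3. Without replicate 2 the count was 4 of 11, since ATPsynE and ATPsynCF6 were added.

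**Figure D1:**
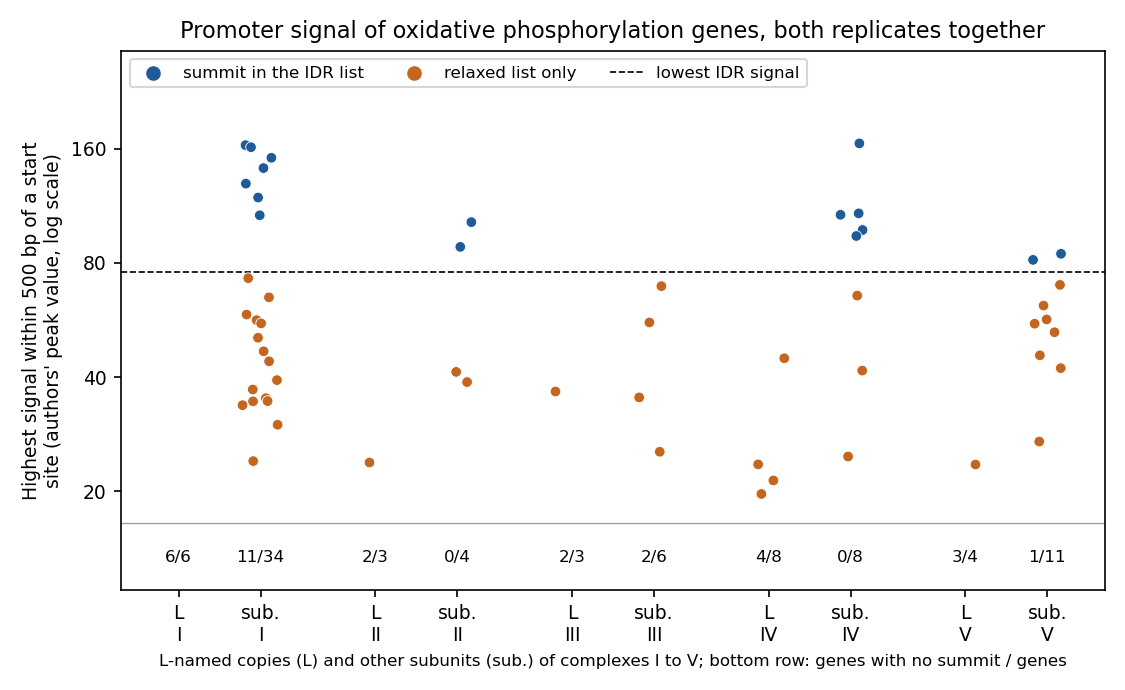
Highest signal within 500 bp of a start site in the list of both replicates (log scale) for each gene, with L-named genes left of the other subunits of each complex. The dashed line is the lowest IDR signal, 75.5, and the bottom row gives the genes with no relaxed summit out of all genes: 11 of 34 subunits of complex I had none, while all 8 of complex IV and all 4 of complex II had one, and no L-named gene reached the line.

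Over the 63 subunit genes without any L symbol, 16 had an IDR summit (25.4%) and 49 a relaxed one (77.8%), with a median relaxed signal of 56.5. The median over the 56 genes of all kinds with a relaxed summit was 53.9, with a range of 19.7 to 165, beside 44.3 over all nuclear genes and 47.2 over protein-coding genes with such a summit. Within the IDR list the 16 genes ranked from 640 to 2405 of 2704, with COX5A, ND-24 and ND-ASHI within the top 24.7% of the list and 7 in the upper 1352 peaks. Those 7 were 6 genes of complex I and COX5A, so that the upper peaks left 1 of 8 in complex IV and none in complexes II and V. The genes blw of complex V, at 179.1, and levy of complex IV, at 136.8, are outside these counts. Over all 16 genes the median IDR signal was 107.6, beside 121.9 over protein-coding genes with an IDR summit.

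The 5 genes next below the IDR list had signals of 72.9 at ND-B18, 70.0 at ATPsynE, 69.5 at UQCR-14, 65.6 at COX7C and 64.9 at ND-MNLL. ND-B18, an accessory subunit of complex I, had 34.2 in replicate 2 and 39.4 in replicate 3. ATPsynE, a subunit of the membrane part of the synthase, had 27.6 in replicate 2 and 43.8 in replicate 3. Both were higher in replicate 3, against the direction at most genes. COX7C had 42.2 in replicate 2 and 22.1 in replicate 3, and ND-MNLL, an accessory subunit of complex I, had 41.1 in replicate 2 and 26.5 in replicate 3. The 71 genes without an IDR summit at the promoter lay at a median of 9382 bp from the nearest IDR summit, and 3 of them within 1000 bp, namely COX7AL2 at 565 bp, ATPsynE at 807 bp and SdhA at 847 bp. By the nearest relaxed summit of both replicates to a start site, those just inside the 500 bp window were UQCR-6.4L at 399 bp, COX7CL at 389 bp and COX7AL2 at 351 bp, and those just outside it were ND-B14.7 at 511 bp, ND-20 at 516 bp and ND-B15 at 686 bp.

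In the replicates taken singly, 58 genes had a relaxed summit in replicate 2 (66.7%, beside 46.0% of all nuclear genes) and 56 in replicate 3 (64.4%, beside 44.5%). Both replicates had one at 45 genes (51.7%, beside 35.3% of all nuclear genes), replicate 2 alone at 13 and replicate 3 alone at 11. The highest signal found in 1 replicate alone was 44.5 at ATPsynB in replicate 2, and in replicate 3 it was 22.1 at ND-B15. Among each replicate's own 2704 highest peaks, 14 genes had a summit in replicate 2 (16.1%, beside 11.8% of all nuclear genes) and 18 in replicate 3 (20.7%, beside 12.0%), 13 of them in both. All 14 in replicate 2 were IDR genes, and replicate 3 had 15 IDR genes with ND-B18, ATPsynE and ATPsynCF6.

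All 16 IDR genes had a summit in both replicates, which the choice of the IDR list on both replicates makes likely. Their replicate 2 summits lay at a median of 1 bp from the IDR summit and at most 58 bp away, and those of replicate 3 at a median of 14.5 bp and at most 106 bp. Over the 45 genes with a summit in both replicates, the signals had a Spearman's rho of 0.710 and a Pearson's r of 0.717 on the log2 scale, beside a rho of 0.753 over 6464 nuclear genes. This is across genes, which are not replicates, and all points come from the same 2 libraries. The signal of replicate 2 over that of replicate 3 had a median ratio of 1.38 over the 45 genes and 1.39 over all nuclear genes, so the shift between the replicates was that of the lists as a whole. The ratio ran between 0.440 at COX7AL2 and 3.49 at SdhD. Each value is the highest summit within 500 bp in its own list, and positions were not matched between the replicates. At SdhD the summit lay at -16 bp from the start in replicate 2 and at -295 bp in replicate 3, where negative is upstream. The ratio of 3.49 is therefore not of the same position.

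**Figure D2:**
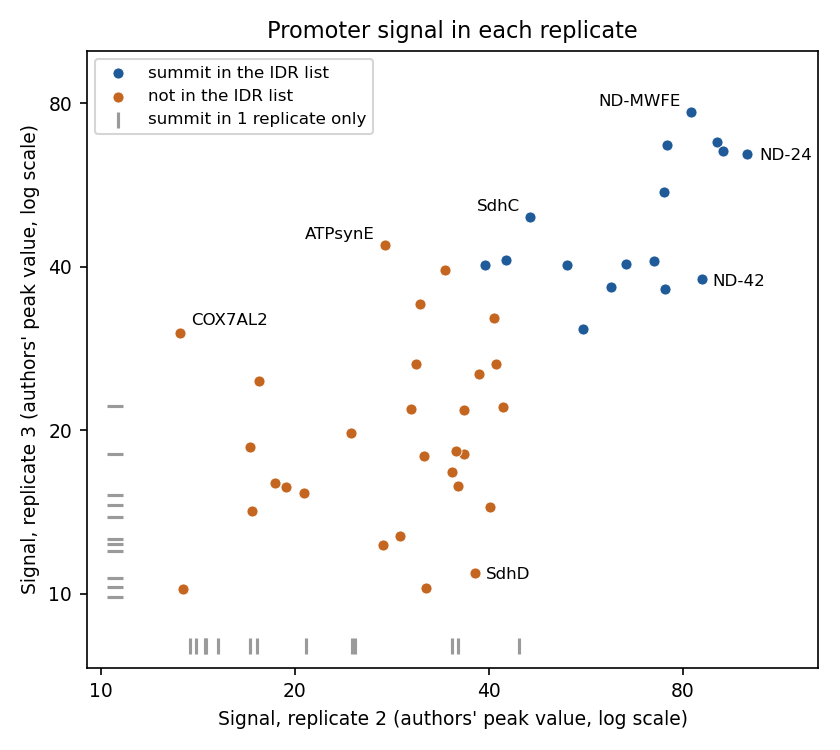
Signal in replicate 2 (x axis) and replicate 3 (y axis), both on log scales, for the 45 genes with a summit in each, with grey ticks along the axes for genes with a summit in 1 replicate only. The IDR genes hold the upper right, ND-42 and SdhD lie towards replicate 2, and COX7AL2 and ATPsynE towards replicate 3. Summit positions were not matched between the replicates, and the 2 values of SdhD are not of the same position.

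The L paralogues were set beside the genes they are named after. There were 20 of them, named after 18 genes. None of the 20 had an IDR summit, beside 6 of the 18 genes they are named after (33.3%) and 11.7% of all nuclear genes. A relaxed summit lay at 6 of the 20 (30%), with a median signal of 23.7, beside 16 of the 18 (88.9%), with a median of 63.7, and 45.5% of all nuclear genes. Within 200 bp of a start site the first count was 2 of 20, or 10%, and the share over all genes at that window is not given here. Of the 20, 12 had a summit in none of the 4 lists, beside 1 of the 18, UQCR-11. The count was 7999 over the 18320 nuclear genes and 5434 over the 13973 protein-coding ones. The other 4 genes with an L symbol have no namesake among the 87 genes (COX6AL, COX6AL2, COX6CL and ATPsynepsilonL), and of these ATPsynepsilonL had a relaxed summit, with a signal of 23.6.

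In 12 of the 20 pairs the namesake alone had a relaxed summit, in 6 both had one, in 2 neither had one, and in none did the paralogue alone have one. In 4 of the 6 pairs with both, the namesake was higher. SdhBL had 23.9 together, 14.02 in replicate 2 and no summit in replicate 3, beside 88.2 at SdhB. COX7AL had 23.6 together, 14.6 in replicate 2 and no summit in replicate 3, beside 41.6 at COX7A. COX4L had 19.7 together, no summit in replicate 2 and 14.5 in replicate 3, beside 24.7 at COX4. Each of these 3 rested on 1 replicate.

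COX7CL had 21.4 together, 15.2 in replicate 2 and no summit in replicate 3, beside 65.6 at COX7C. Its start lies 281 bp past the end of COX7C. The summit in the list of both replicates lies 389 bp before that start, inside COX7C, in an intron. The replicate 2 summit lies 195 bp past the start, so the 2 values are not of the same position. The paralogue was the higher one in 2 pairs. COX7AL2 had 44.9 together, 13.3 in replicate 2 and 30.2 in replicate 3, beside 41.6 together, 20.7 in replicate 2 and 15.3 in replicate 3 at COX7A, so the order turned round in replicate 2. Its summit lay 351 bp past a start in the list of both, and 482 and 498 bp past a start in replicates 2 and 3. UQCR-6.4L had 36.8 together, 17.04 in replicate 2 and 18.7 in replicate 3, beside 25.4 together, no summit in replicate 2 and 15.2 in replicate 3 at UQCR-6.4. Its summit lies 399 bp before its start, inside the gene Mipp1.

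COX5B and COX5BL are adjacent, but their starts lie too far apart for 1 summit to be within 500 bp of both. The IDR summit of COX5B lies 1898 bp from the COX5BL start. COX5BL begins 122 bp past the end of COX5B on 2L and had no relaxed summit of both replicates, while COX5B had 94.2. In the single replicates COX5BL had 13.4 in replicate 2 and 10.2 in replicate 3, both close to the lowest values of those lists, 12.9 and 9.64. In all, 5 of the 20 pairs lie on the same chromosome arm and 3 within 10 kb of each other.

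**Figure D3:**
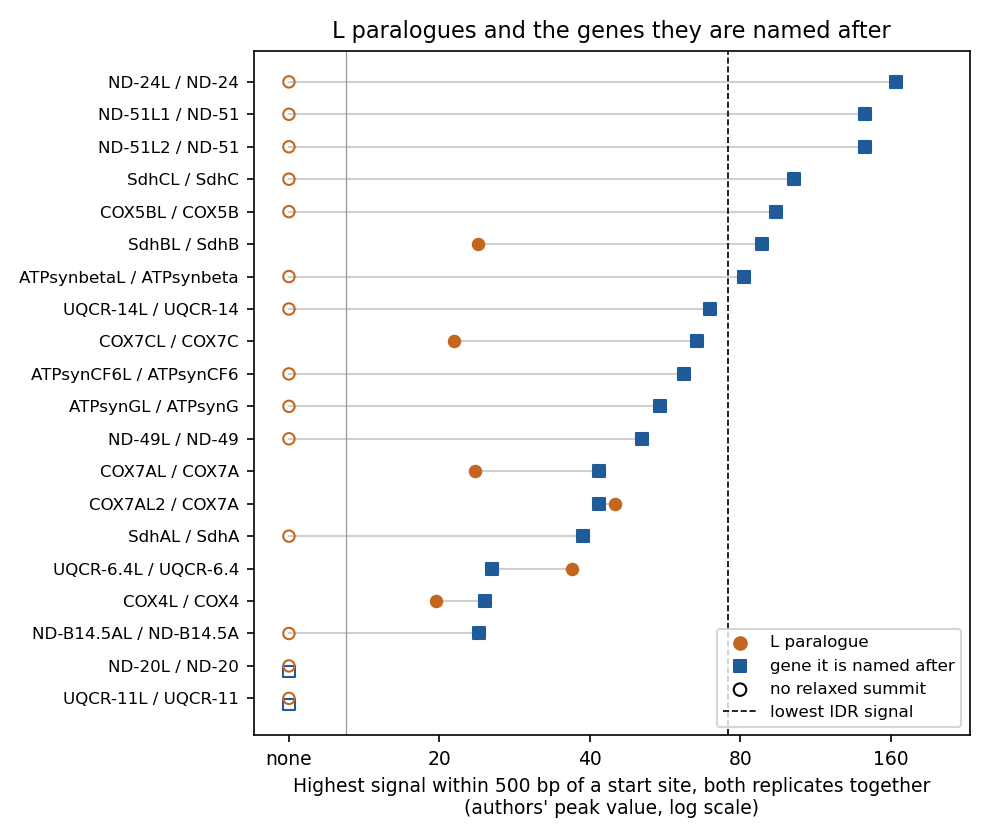
Highest signal in the list of both replicates (log scale) for each L paralogue (circles) and the gene it is named after (squares), 1 pair per line, with open symbols in the column headed none for genes with no relaxed summit. The paralogue lies right of its namesake in 2 lines, COX7AL2 and UQCR-6.4L, and no paralogue reaches the lowest IDR signal of 75.5.

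The IDR summits lay close to the starts. Of the 16, 14 were upstream of the start site (87.5%, near the 89.0% of protein-coding genes with an IDR summit) and 2 downstream (ND-24 at 116 bp and ATPsynbeta at 29 bp), with a median absolute distance of 109.5 bp, beside 142 bp over protein-coding genes with an IDR summit. The farthest upstream was COX5B at 267 bp, then ND-ASHI at 230 bp, and the nearest were SdhB and ND-SGDH, both at 2 bp. By annotation 11 summits were between genes, 4 in introns and 1 in a coding exon, that of ATPsynbeta, and the shares over all IDR genes are not given here. The COX5A summit is intronic because it lies between the start sites of that gene, 83 bp before the second of them. By chromosome arm, IDR summits lay at 2 of 16 of the genes on 2L (14.6% of the arm's protein-coding genes), 2 of 17 on 2R (13.2%) and 3 of 20 on 3L (15.9%), which are about the arms' own shares. They lay at 5 of 19 on 3R (15.9%), 3 of 13 on X (11.4%) and 1 of 2 on chromosome 4 (11.2%), from few genes.

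**Figure D4:**
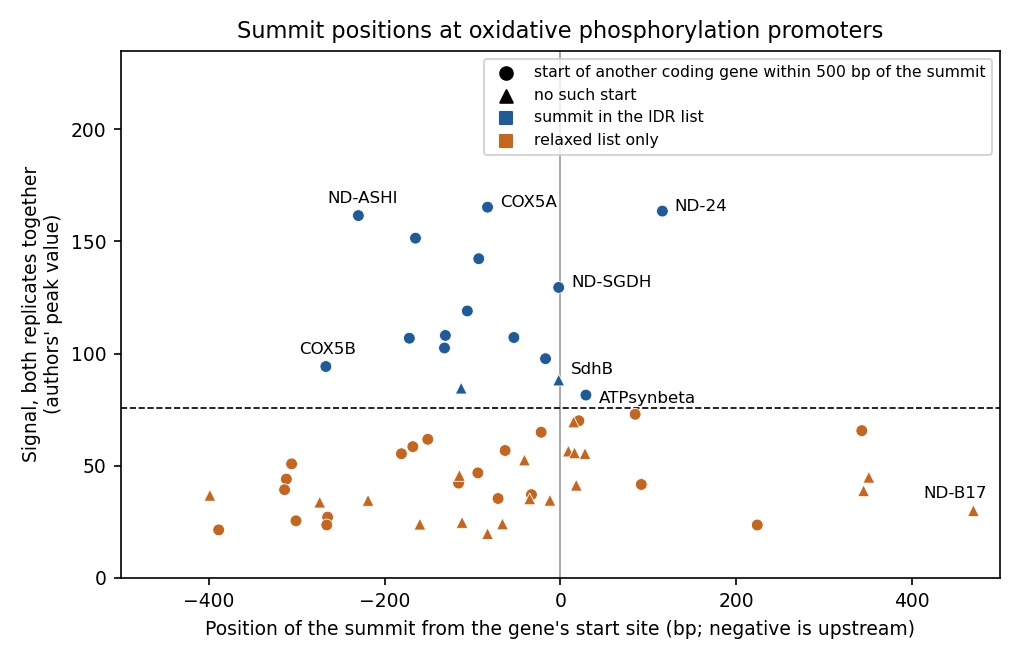
Position of the highest summit relative to the start site (x axis, bp, negative is upstream) and its signal in the list of both replicates (y axis) for the 56 genes with a relaxed summit, with circles where another coding gene starts within 500 bp of the summit and triangles where none does. The IDR summits, above the dashed line at 75.5, lie between 267 bp upstream and 116 bp downstream, and 14 of 16 are circles.

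At 15 of the 16 genes the IDR summit was also within 500 bp of another gene's start site (93.8%), beside 1324 of 2004 protein-coding genes with an IDR summit (66.1%). Within 200 bp the members' share was 64.3%, or 9 of 14. The 66.1% is for 500 bp, and the share over all coding genes at 200 bp is not given here. The other gene was protein-coding at 14 of the 16, and at 13 it ran on the opposite strand. SdhB was the 1 gene whose summit was near no other gene's start, and ATPsynC shared its window only with noncoding genes. So most of these peaks cannot be assigned to the respiratory gene alone.

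Some of the partners are mitochondrial too. The ND-ASHI peak lies 230 bp from its start and 292 bp from that of Fum1, which encodes fumarase of the citric acid cycle. The ND-42 peak lies 106 bp from its start and 123 bp from that of Cchl, which encodes the lyase that attaches haem to cytochrome c. Others act elsewhere in the cell. ND-24 lies beside corolla, of the synaptonemal complex, COX5A beside glo, an RNA-binding protein that acts on nanos mRNA, and COX8 beside VhaM9.7-b, a proton pump subunit. SdhC lies beside Tctp, ND-SGDH beside RhoGAP68F, ND-51 beside CG13994 and ATPsynbeta beside CG11076.

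In 4 cases the other gene was the nearer one. The ND-MWFE summit lay 165 bp from its start and 56 bp from that of TppII, a peptidase gene. The COX5B summit lay 267 bp from its start and 31 bp from that of IFT52, a gene of intraflagellar transport. The ND-23 summit lay 172 bp from its start and 130 bp from that of spn-E, a piRNA pathway helicase, and the COX7B summit lay 131 bp away, beside 129 bp from Sec3, of the exocyst. At COX6B the summit was 17 bp from its start and as near to that of CG18809, with CG33932 and Rpp20 within 500 bp as well. Counting a summit only for the gene with the nearest start would move these 4 peaks to the neighbours, which leaves 12 of 87 genes (13.8%).

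Among the 40 genes with a relaxed summit only, 21 shared it with another gene's start (52.5%). The share over all coding genes with a relaxed summit only is not given here. All genes were also split by their own surroundings, which uses no peak. Another coding gene starts within 500 bp at 41 of the 87 genes, and of these 14 had an IDR summit (34.1%), beside 2 of the 46 without such a neighbour (4.35%). Over all protein-coding genes the shares were 29.5% of 4309 with a neighbour and 7.58% of 9659 without. For the 63 subunit genes without an L symbol they were 36.8%, or 14 of 38, and 8%, or 2 of 25. Of the 20 L paralogues 18 have no such neighbour, and their 0 IDR summits stand beside the 7.58% of protein-coding genes placed alike. The part of gene arrangement in the difference between paralogues and namesakes was not tested.

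**Figure D5:**
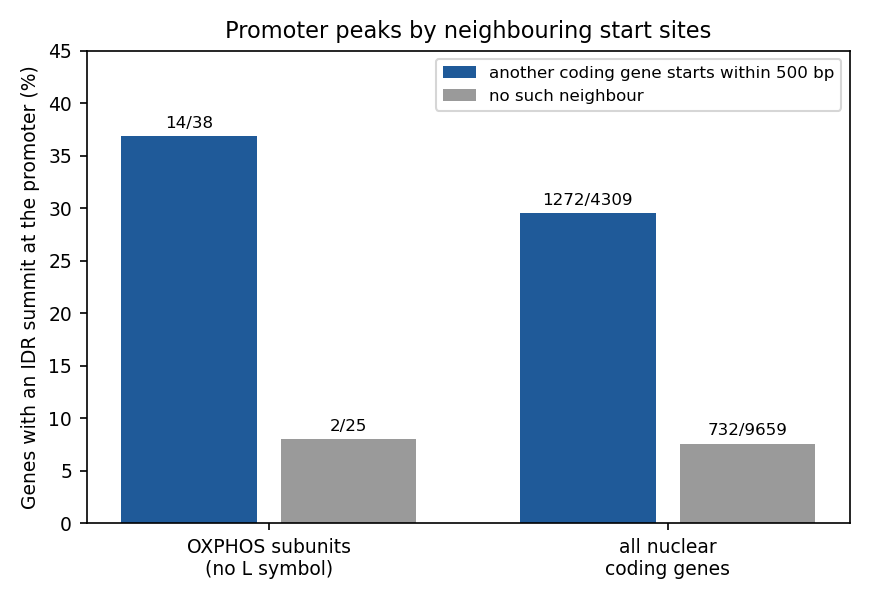
Share of genes with an IDR summit at the promoter (y axis, percent) where another coding gene starts within 500 bp (blue) and where none does (grey), for the 63 subunit genes without an L symbol (left) and for all nuclear protein-coding genes (right), with counts above the bars. The share was 36.8% and 8% for the subunits and 29.5% and 7.58% for all coding genes.

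The promoters were searched on both strands for words known from fly promoters or from respiratory genes, in a window from 250 bases before to 50 after the start, 1 window per gene. A match is a description of letters. GGTCACAC, the core of the motif called motif 1 in fly core promoters, was in 17 of the 87 windows (19.5%), beside 7.53% of all protein-coding genes. It was in 6 of the 16 IDR genes (ATPsynC, COX5A, COX5B, COX7B, ND-MWFE and SdhB), or 37.5%, beside 11.6% of coding genes with an IDR summit. Of the 20 L paralogues 1 held it (5%), near the 7.53% of all protein-coding genes. Within 100 bases of the summits it was in 2 of the 16 (12.5%), ATPsynC and SdhB, beside 3.79% of coding genes with an IDR summit. At the other 4 of the 6 genes it was farther from the summit.

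The nuclear respiratory gene element, searched as TTACGTAA, TTATATAA and TTACATAA, was in 5 of 87 promoter windows (5.75%), beside 5.13% of coding genes. Within 100 bases to each side of the start it was in 11 of 87 (12.6%), beside 2.34% of coding genes. It was in none of the 20 L paralogues, which are too few to tell 0 from 2.34%. Within 100 bases of the highest relaxed summit it was in 9 of 56 genes (16.1%), beside 4.10% of 7057 coding genes with a relaxed summit. Of the 16 IDR genes, ND-42 and ND-SGDH held it there (12.5%), beside 5.14% of coding genes with an IDR summit. TTATATAA overlaps TATAAA wherever 1 more A follows, as at ND-42. ACAGTG was in 13 windows (14.9%), beside 13.9% of coding genes, and TATCGATA, the DNA replication related element, in 8 (9.20%), beside 8.95%. These 2 shares were near the background, as was that of TATAAA, in 43 windows (49.4%) beside 45.3%. TCAAGGTCA, bound by the oestrogen-related receptor ERR, GCATGCGC, the core of the mammalian NRF-1 site, and CCGGAAG, of ETS factors, were in none of the 87 windows, beside 0.136%, 1.06% and 1.09% of coding genes.

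Other genes of respiration were followed in 5 lists, of which 38 symbols matched the annotation. An IDR summit lay at 11 of the 38 (28.9%), beside 11.7% of all nuclear genes. With a window of 200 bp the pathway share was 15.8%, and the share over all genes at that window is not given here. A relaxed summit lay at 30. Of 9 further subunits and cytochrome c genes 3 had an IDR summit, with signals of 179.1 at blw, the alpha subunit of the ATP synthase, 136.8 at levy, a subunit of complex IV, and 263.0 at Cyt-c-d, the cytochrome c gene known for its role in the male germ line. The Cyt-c-d summit lay 388 bp from its start and 154 bp from that of CG31808. The levy summit lay 185 bp from its start and 66 bp from that of wmd. Alpha, at 179.1, was higher than beta, at 81.5, its partner in the catalytic head. Of 4 assembly genes 1 had an IDR summit, CIA30, a complex I assembly factor, with 289.9.

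Of 11 citric acid cycle genes 3 had an IDR summit, with 316.9 at Idh3g, an isocitrate dehydrogenase subunit, 161.5 at Fum1, which is the peak of ND-ASHI, and 112.9 at mAcon1, the aconitase. Of 8 genes that keep and express the mitochondrial genome 1 had one, mtSSB, its single-stranded DNA binding protein, with 165.5. Of 6 regulators 3 had one, with 168.1 at ERR, 94.0 at foxo and 83.3 at Pdk1. The ERR summit lay 12 bp from the start of Atg18a and 198 bp from that of ERR. The Pdk1 summit lay 24 bp from the start of the noncoding gene lncRNA:CR45805 and 265 bp from that of Pdk1. Idh3g, CIA30, Cyt-c-d, blw, ERR and mtSSB were each above COX5A, at 165.3 the highest of the 87 genes.

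The 3 comparison lists show where respiratory genes stand among other gene families of basic cell function. An IDR summit lay at 18.4% of the 87 genes, or 25.4% without L symbols, beside 32.9% of 73 mitochondrial ribosomal protein genes, 56.5% of 92 cytoplasmic ribosomal protein genes and 14.6% of 48 proteasome subunit genes. The median relaxed signal was 53.9, beside 63.0 for mitochondrial ribosomal, 95.9 for cytoplasmic ribosomal and 59.8 for proteasome genes. The mitochondrial and cytoplasmic ribosomal lists were thus above the respiratory genes in both measures, and the proteasome list was below them in the first and above them in the second.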

How the data were processed

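The 4 peak lists on dm6 were used: the IDR list, the relaxed list of both replicates and the relaxed list of each. Peaks were called per replicate and on both replicates together, per the labels and file names. The signal in each list is the authors' deposited value per peak, used as it stands. Not given in the sources used here: aligner, peak caller, IDR threshold and normalization. The lists on dm3 were not used here. Start sites were those of Ensembl release 115, and sequence was read from the genome of Release 6. The 38 mitochondrial genome genes were left out. Every peak has 1 summit, and a gene took the highest signal within 500 bp of any start site. Assignment was tested on simulated data. Since the lists hold no counts, depth is unknown and no interval was made from it. The labels call both replicates biological.

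The members, gene lists, words and alternatives were chosen with earlier results of these data known. Any member may be named. Values in every list are given for genes with an IDR summit, the 5 highest genes below it and L paralogues with a relaxed summit, and other genes are named where they share a member's promoter or are pathway genes with an IDR summit. Genes outside these were named after their values were seen. Alternatives were windows of 200 and 1000 bp, the upper 1352 IDR peaks, the nearest start only, each replicate left out, and other motif windows. Python 3.11.15 with numpy 2.4.6, pandas 2.3.3, scipy 1.17.1 and matplotlib 3.10.9 was used.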

Additional observations from a re-analysis of the deposited data

How the results depend on the processing

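Of 83 alternative values, 64 stayed within the 95% Wilson interval of the reported share, or within the spread of the replicates for a median. The other 19 moved, and the cause was not tested. The interval treats genes as independent draws, while each alternative scores mostly the same genes, and it is wide for short lists. Complex IV at 37.5% in place of 62.5%, and complex II at 25% or 75% in place of 50%, counted as within it. The count of 64 is therefore no measure of stability for the complexes. The share of genes with an IDR summit was 8.05% with the upper 1352 IDR peaks and 28.6% of the genes with a relaxed summit, an alternative chosen after seeing the data. With the upper peaks, complexes II and V had 0%, complex IV 12.5%, and the share of IDR genes with a shared promoter was 100%. With a window of 200 bp that share was 64.3%, the pathway share was 15.8% and the share of L paralogues with a relaxed summit was 10%. Shares over all genes at 200 bp are not given here. Leaving out either replicate gave a range of 0 to 36.4% for complex V, 92.9 to 100% for shared promoters, 107 to 131.5 bp for the median distance, and 21.8 to 35.1 for the median signal, whose scale differs between the lists. Counting a summit only for the gene with the nearest start gave an IDR summit at 13.8% of the genes and a median distance of 88 bp. Within 100 bases of the summits the shares were 7.14% for ACAGTG (13.4% of coding genes with a relaxed summit), 10.7% for GGTCACAC (5.78%) and 16.1% for the nuclear respiratory gene element (4.10%), and within 100 bases of the start TATAAA was in 28.7% (28.9% of coding genes). The short lists, such as 4 genes in complex II and 6 in complex III, limit what a share can show. Weak summits are ranked near the end of lists of fixed length, so that no summit is not the same as no binding.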
